A study of Mus musculus with 24 samples.

Results

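A set of 10 genes that nephrologists use as markers of injured kidney tubules were followed through the m6A peak lists of 12 mouse kidneys: Havcr1, Lcn2, Spp1, Clu, Vcam1, Sox9, Cd44, Krt8, Krt18 and Krt20. A peak was assigned to a gene when it overlapped an exon of that gene on the same strand. Of the 10 genes, 6 held a peak in at least 1 kidney, with 82 of the 91013 listed peaks. Lcn2, Spp1, Krt18 and Krt20 held none in any kidney. Among all 21951 annotated protein-coding genes, 35.4% held a peak in some kidney.

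The kidneys came from male C57BL/6 mice, 4 per group, which were aged 8 weeks when they were assigned to the groups. Control mice received vehicle only. Mice of the injury group (IG) received daily intraperitoneal vehicle and then cisplatin at 20 mg/kg intravenously, and mice of the treatment group (TG) were given 14 daily injections of berberine (20 mg/kg each) before the same dose of cisplatin. Kidneys were taken 72 h after the intravenous injection. Whole kidney was used, so tubules, glomeruli, vessels and immune cells contributed RNA together.

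N6-methyladenosine (m6A) is a methyl mark that a writer complex places on adenosines of mRNA within a short sequence motif, often in long internal exons and around the stop codon, where reader proteins can bind it and alter splicing, translation and decay. In MeRIP-seq, fragments bound by an antibody against m6A are sequenced and stretches with more reads than the background are called as peaks. Tubular epithelium damaged by cisplatin, a platinum drug taken up by proximal tubule cells, is known to lose its differentiated transporters and to switch on a set of injury and repair genes, to which the 10 markers belong. IG against control (IvC) asked what cisplatin injury did to the peaks of these genes, and TG against IG (TvI) asked what berberine pretreatment added. TG against control (TvC) shares its kidneys with both, so the 3 comparisons are not independent.

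Each list gives, for every peak, its position, its strand and a score, which is 10 times the negative log10 of the p-value from the peak caller. The lowest score was 13.02 and a p of 0.05 corresponds to 13.0103. Scores near 3100 form the top of the scale, with 1086 peaks at exactly that value and 79 above it. The score moves with sequencing depth, the amount of the transcript and the width of the peak, and is not a methylation level. In whole tissue, fewer cells of a type and less RNA per cell cannot be told apart either. The lists hold no read counts, so their depth is unknown, and a peak that is not listed may lie just below the threshold. The amount of RNA of each gene was not analysed here.

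The lists of control kidneys were longer (8531 to 9579 peaks) than those of IG (6745 to 8357) and TG (5901 to 6753). Marker peaks, summed over the genes, were fewest in the controls, while by gene 3 markers were listed in more IG than control kidneys (Havcr1, Sox9 and Cd44), 1 in as many (Clu), 2 in fewer (Krt8 and Vcam1) and 4 in none. The markers held 5 peaks in each of the 4 control kidneys, 7, 8, 10 and 9 in IG kidneys 1 to 4, and 6, 6, 7 and 9 in TG kidneys 1 to 4. As a share of each list this was 0.0522 to 0.0586% in controls, 0.0981 to 0.133% in IG and 0.0911 to 0.133% in TG. The longer control lists lower their share, and how often other gene sets differ in this way was not tested. The number of marker genes listed was 3, 4, 3 and 3 in controls, 5, 6, 4 and 6 in IG, and 4, 5, 6 and 5 in TG. Here the groups met at 4 genes. These sums carry no p-value, because the genes were chosen with earlier results of these data known.

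**Figure D1:**
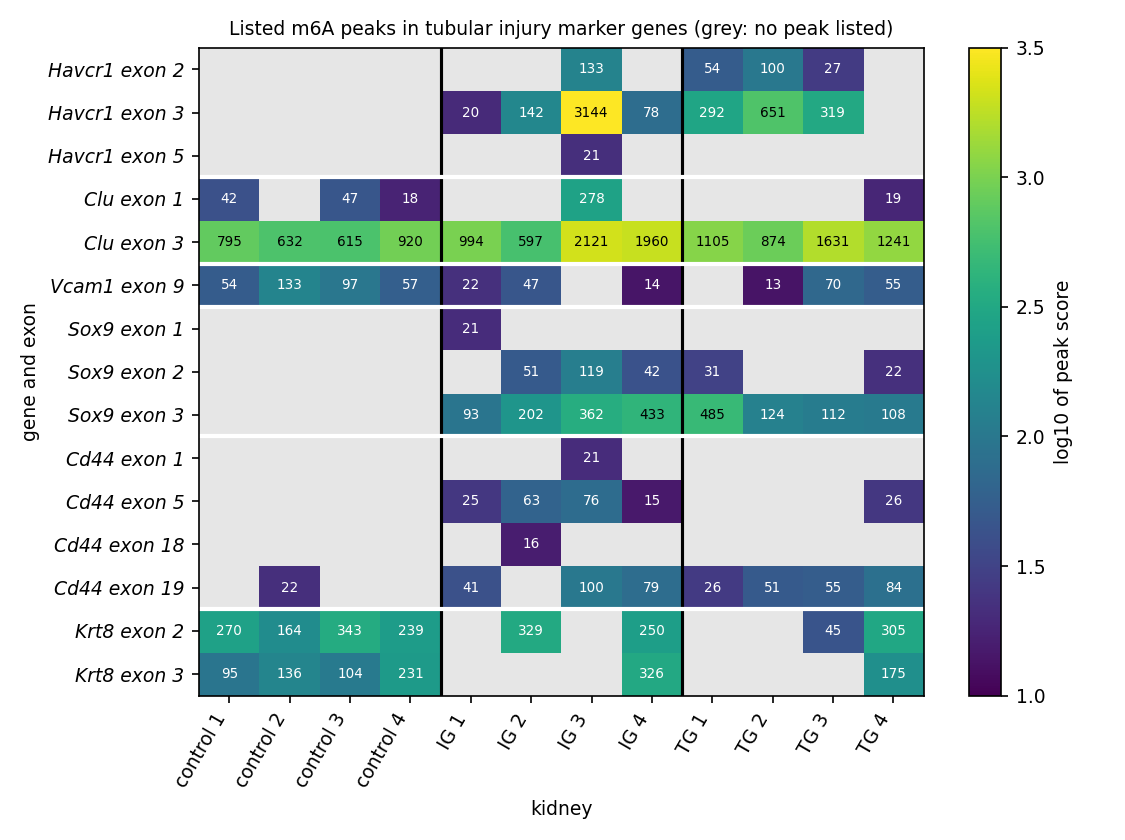
Peak scores of the tubular injury markers, with 1 row per gene and exon and 1 column per kidney (control, IG and TG, 4 each). Numbers are scores, colour is their log10, and grey means that no peak was listed. Havcr1 and Sox9 rows are grey in all 4 controls, Krt8 rows are filled in all 4 controls and the exon 3 row of Clu is filled in all 12 kidneys.

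Peaks overlapping by at least 1 bp on the same strand were joined across kidneys, which gave 15 loci in the markers and 16815 in all. Numbers of kidneys with a peak were compared by Fisher's exact test (two-sided). With 4 kidneys against 4, only a peak in every kidney of one group and in none of the other falls below 0.05 in this exact test (p = 0.0286), and that outcome is termed a call here. In IvC, 3 of the 15 marker loci were called, in Havcr1, Sox9 and Cd44, all with the peak in IG. Over all 16072 loci tested, 4.08% were called, 1.35% gained in IG and 2.73% lost. No locus passed the threshold after Benjamini-Hochberg adjustment, and the 3 marker loci each had an adjusted p of 0.701 (Fisher's exact test).

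Counted per gene, Havcr1 and Sox9 were called in IvC and no marker was lost. Over 7526 genes, 5.06% were called, 1.90% gained and 3.16% lost. In TvI no marker locus or gene was called, against 0.666% of 13367 loci and 0.765% of 6666 genes. In TvC the Sox9 gene and 1 of its loci were called, both gained, against 4.73% of 15169 loci called (1.00% gained) and 5.88% of 7242 genes (1.51% gained). The median difference in kidneys with a peak over the 6 listed markers was 1.5 in IvC, 0 in TvI and 1.5 in TvC. Over all genes tested the median was 0 in each comparison. Markers without a peak were left out, and Havcr1 and Sox9 entered only through cisplatin kidneys. The marker medians depend on that selection and were not tested.

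Havcr1 encodes kidney injury molecule 1, a receptor for phosphatidylserine that injured proximal tubule cells place on their surface to engulf dying neighbours. The gene (ENSMUSG00000040405.13, GRCm38 chr11:46735080-46779578, plus strand, 8 exons) held no peak in any control kidney, a peak in 4 of 4 IG kidneys and in 3 of 4 TG kidneys. Its leading locus was exon 3, a coding exon of 159 bases that was listed whole in 7 kidneys. The exon is shown from the GRCm38 RefSeq assembly because it carries the gain in injury. Capitals mark matches to RRACH, the m6A motif, which reads A or G, A or G, A, C and then A, C or T, searched on the strand of the gene.
Havcr1 exon 3, chr11:46756129-46756287, plus strand: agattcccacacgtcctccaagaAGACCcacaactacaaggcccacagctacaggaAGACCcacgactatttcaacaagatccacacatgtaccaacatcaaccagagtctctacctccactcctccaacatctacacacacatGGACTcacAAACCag

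The exon held 4 motif matches, of which the one at base 145 was GGACT. Among the 1507 loci of similar width (within 10%), 93.6% held the motif, with a median of 3 matches, and 12.7% held GGACT. A match describes the letters only and is not a measured methylation site.

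The scores at exon 3 of Havcr1 were 19.6, 142, 3144 and 78.4 in IG kidneys 1 to 4. In TG kidneys 1 to 3 they were 292, 651 and 319, and TG kidney 4 and the 4 controls had no listed peak. Scores of IG spanned the 12.04th to the 99.97th percentile of their lists, while the listed TG kidneys lay at the 81.4th, 90.7th and 83.3rd. The place of the highest score is uncertain, since the 116 peaks of that list at exactly 3100 may be p-values of 0, and with them ranked above it the percentile is 98.6. The third IG kidney stood far above the rest, and each of the other 3 IG kidneys scored below all 3 listed TG kidneys. Presence differed between IG and control (Fisher's exact test, p = 0.0286, adjusted p = 0.701) and gave p = 0.143 in TvC. In TvI, 3 of 4 against 4 of 4 kidneys gave p = 1 in the same exact test. The IvC call included the low score of IG kidney 1. With equally long lists, or with peaks at or above the median score (71.3) only, the gain was in 3 of 4 kidneys, a difference of 75 percentage points.

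Exon 2 of Havcr1 (chr11:46752304-46752642, coding) was listed in 1 IG kidney and 3 TG kidneys. Its scores were 133 in IG kidney 3, and 53.8, 100.2 and 27.0 in TG kidneys 1 to 3. These are the same TG kidneys that listed exon 3. Exon 5 was listed in IG kidney 3 alone, with a score of 21.5. TG kidney 4 therefore listed no part of Havcr1, as in controls.

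A group of 5 genes had the pattern most like Havcr1 by Pearson's r over the 12 kidneys, each gene being given its highest score as a percentile of the list and 0 where it was not listed. They were Apob (r = 0.971), Slc16a9 (r = 0.952), Mex3a (r = 0.917), Bmp4 (r = 0.902) and Samd5 (r = 0.878), of 7768 genes compared. Apob, the protein core of low-density lipoproteins, was listed in 0 control, 3 IG and 3 TG kidneys and was also missing from TG kidney 4. Bmp4, a secreted growth factor of the TGF-beta family, was listed in 1 control, 4 IG and 3 TG kidneys. The points of such a correlation share their lists, and no test was made.

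Sox9 encodes a transcription factor that surviving tubule cells switch on during repair. The gene (ENSMUSG00000000567.5, chr11:112782224-112787760, plus strand, 3 exons) was listed in 0 of 4 control, 4 of 4 IG and 4 of 4 TG kidneys. At the gene level p was 0.0286 in IvC (adjusted p = 0.564) and in TvC (adjusted p = 0.486, Fisher's exact test for both). The leading locus covered most of exon 3, the last exon, at chr11:112784672-112787070. It included 836 coding bases and 1563 bases of the 3′ UTR. The 8 peaks were 2143 to 2399 bases wide, began at the first base of the exon and ran 1307 to 1563 bases past the end of the coding sequence.

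The scores at exon 3 of Sox9 were 93.1, 202, 362 and 433 in IG kidneys 1 to 4 and 485, 124, 112 and 108 in TG kidneys 1 to 4. Their means were 273 ± 154 in IG (SD, n = 4) and 207 ± 185 in TG (SD, n = 4), and the ranges overlapped. TG kidney 1 lay above all IG kidneys, while the other 3 TG kidneys lay close together. The difference in log2 score, TG minus IG, was -0.26 ± 0.64 (limma, SE, 95% interval -1.70 to 1.19, adjusted p = 0.905), after each list was centred on loci found in all 12 kidneys. Presence was called in IvC (p = 0.0286, adjusted p = 0.701) and in TvC (p = 0.0286, adjusted p = 0.604, Fisher's exact test for both). It was called in IvC also with equally long lists and with scores at or above the median.

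The last 120 coding bases of Sox9 are shown because every peak of this exon ran across them into the 3′ UTR. They held 3 motif matches. The whole locus held 30, against a median of 37 in the 430 loci of similar width.
Sox9 exon 3, last coding bases, chr11:112785388-112785507, plus strand: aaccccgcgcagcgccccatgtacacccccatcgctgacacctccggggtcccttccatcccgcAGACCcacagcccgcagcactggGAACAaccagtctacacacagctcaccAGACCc

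Exon 2 of Sox9 (chr11:112783809-112784062, 254 coding bases) was listed in 3 IG kidneys, with scores of 50.9, 118.6 and 42.2 in IG kidneys 2 to 4. The other peaks were in TG kidneys 1 and 4, with scores of 31.4 and 22.3. No control listed it (IvC, Fisher's exact test, p = 0.143), and with scores at or above the median the IvC difference of 75 percentage points was 25. Exon 1 was listed in IG kidney 1 alone, with a score of 20.6, and that kidney was the only IG kidney without exon 2.

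Cd44 encodes the receptor for hyaluronan, and Vcam1 a ligand for leukocyte integrins that marks tubule cells failing to repair. Cd44 (ENSMUSG00000005087.17, chr2:102811141-102901665, minus strand, 19 exons) was listed in 1 of 4 control, 4 of 4 IG and 4 of 4 TG kidneys (IvC and TvC, Fisher's exact test, p = 0.143 each). The control was number 2, and it listed the last exon alone. With equally long lists that peak dropped out and the gene was called in IvC and in TvC (100 percentage points each, Fisher's exact test, p = 0.0286), whereas with scores at or above the median the differences were 50 in IvC and 25 in TvC, against 75 in both with all peaks.

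Exons 5 and 19 of Cd44 differed in which cisplatin kidneys held them. At exon 5 the scores were 25.4, 63.0, 76.0 and 14.9 in IG kidneys 1 to 4, and 25.7 in TG kidney 4. The other 3 TG kidneys and all controls had no listed peak. Presence was called in IvC (p = 0.0286, adjusted p = 0.701), and TvI gave p = 0.143 (Fisher's exact test for both). In IG these scores lay between the 4.59th and the 52.9th percentile of their lists, and with scores at or above the median the IvC difference was 25 percentage points. The TvI difference of -75 percentage points was -50 with equally long lists and -25 with scores at or above the median.

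At exon 19, the last exon (chr2:102813304-102814337), the score was 21.6 in control kidney 2. It was 41.4, 99.5 and 78.6 in IG kidneys 1, 3 and 4, and 26.4, 51.2, 54.6 and 83.7 in TG kidneys 1 to 4. IG and TG overlapped, and all 7 of these peaks scored above the one control peak. Presence gave p = 0.486 in IvC and p = 0.143 in TvC (adjusted p = 0.967, Fisher's exact test). With equally long lists the control peak dropped out and the TvC difference of 75 percentage points became 100, and with scores at or above the median it was 25.

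The Cd44 peaks also differed in extent. At exon 19 they all started at the first base of the exon and were 346 bases wide in the control, 1034, 941 and 744 in IG kidneys 1, 3 and 4, and 707, 682, 681 and 396 in TG kidneys 1 to 4. Every listed IG peak was thus wider than every TG peak, which was seen after the fact and was not tested. The peaks passed the end of the coding sequence by 144 to 832 bases. At exon 5, the 5 peaks covered the 222 coding bases of the exon and 108 to 188 bases downstream of it, where the annotation has an exon of a Cd44 transcript with a retained intron.

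The coding bases of exon 5 are shown because this is the Cd44 exon found in each IG kidney. They held 4 motif matches.
Cd44 exon 5, chr2:102853015-102853236, minus strand: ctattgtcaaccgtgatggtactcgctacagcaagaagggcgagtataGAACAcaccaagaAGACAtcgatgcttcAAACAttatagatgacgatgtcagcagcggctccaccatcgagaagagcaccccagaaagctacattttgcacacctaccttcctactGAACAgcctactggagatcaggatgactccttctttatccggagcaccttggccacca

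Exons 1 and 18 of Cd44 were each listed in a single IG kidney, with scores of 20.7 in IG kidney 3 and 15.8 in IG kidney 2. Of the 15 marker loci, 4 were listed in 1 kidney only (26.7%), against 23.1% of all loci.

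**Figure D2:**
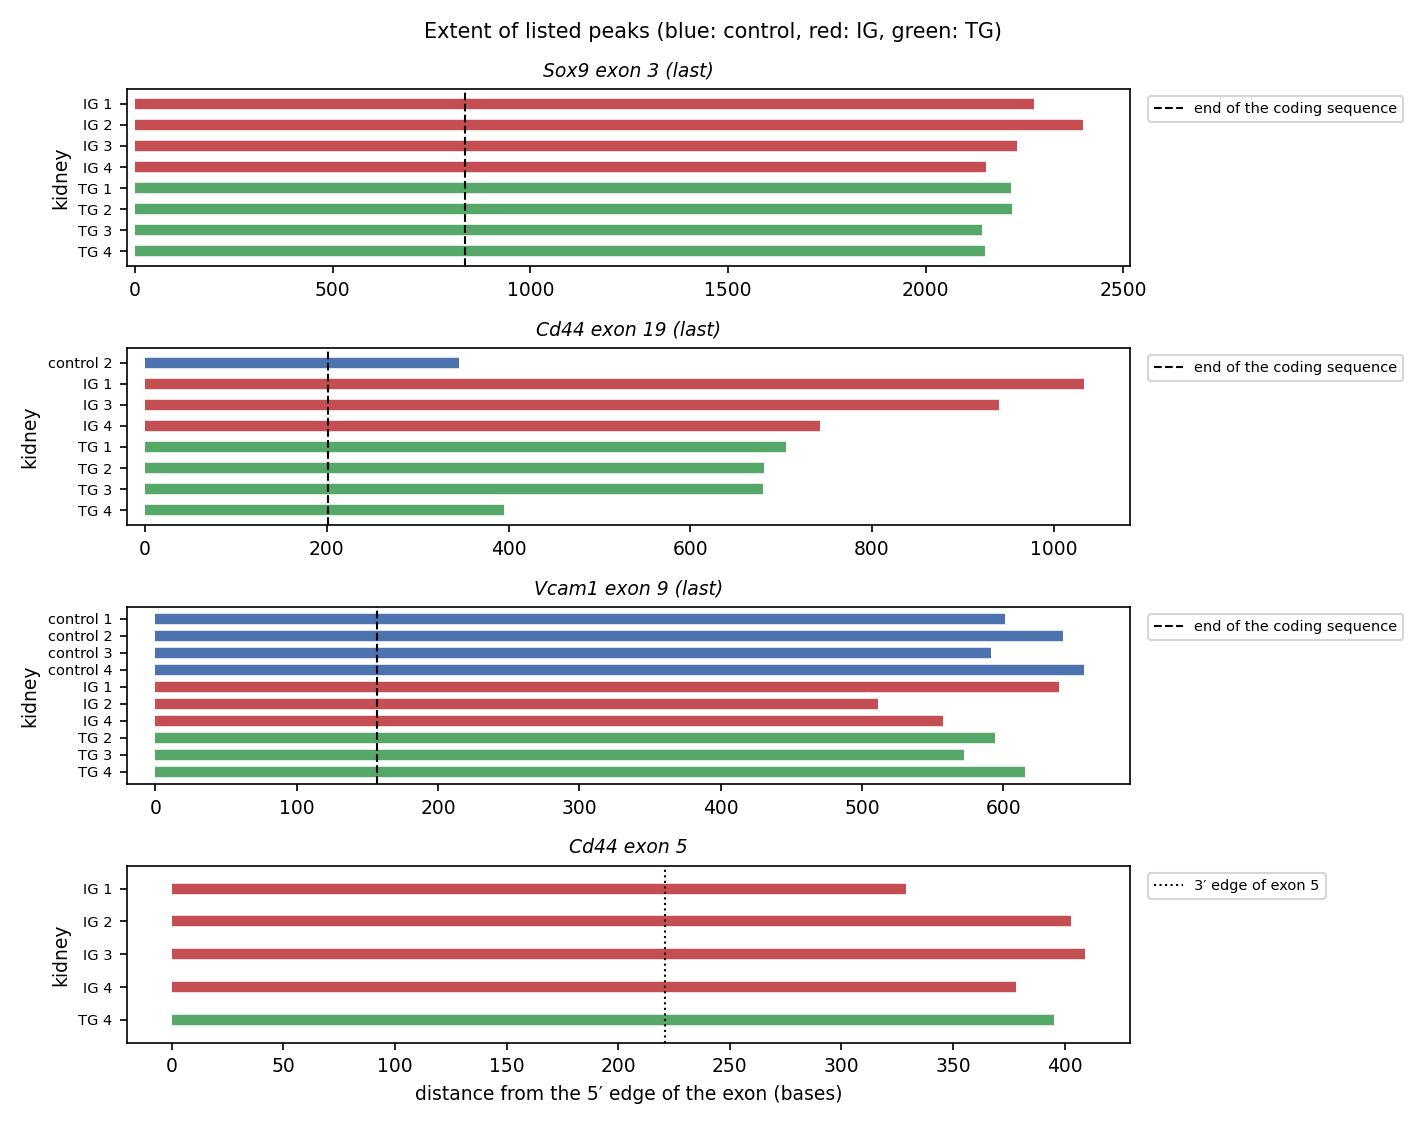
Extent of each listed peak in the last exons of Sox9, Cd44 and Vcam1 and in exon 5 of Cd44, in bases from the 5′ edge of the exon, 1 bar per kidney (blue control, red IG, green TG). The dashed line marks the end of the coding sequence and the dotted line the 3′ edge of Cd44 exon 5. Peaks of the 3 last exons all cross the dashed line, and the Cd44 exon 19 bars of IG (744 to 1034 bases) are longer than those of TG (396 to 707).

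Vcam1 (ENSMUSG00000027962.14, chr3:116109949-116129688, minus strand, 9 exons) had a peak in its last exon in 4 of 4 control, 3 of 4 IG and 3 of 4 TG kidneys. The locus (chr3:116110380-116111037) spanned 158 coding bases and 500 bases of the 3′ UTR. The scores were 53.5, 133, 97.1 and 56.7 in the controls, 22.1, 47.1 and 13.9 in IG kidneys 1, 2 and 4, and 13.4, 69.9 and 54.7 in TG kidneys 2 to 4. No listed IG score reached the lowest control score, while TG overlapped both groups. The scores were not fitted, because only loci listed in all 8 kidneys compared entered that fit. Presence gave p = 1 in each comparison (Fisher's exact test), with a difference of -25 percentage points in IvC and in TvC. With equally long lists it was -75 in IvC (Fisher's exact test, p = 0.143) and -50 in TvC, and with scores at or above the median it was -50 in both.

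Clu encodes clusterin, a secreted chaperone that binds damaged proteins and is released by injured tubules. The gene (ENSMUSG00000022037.15, chr14:65968483-65981547, plus strand, 9 exons) was listed in all 12 kidneys through exon 3, a coding exon of 149 bases. The exon is shown as the marker site common to all groups, and it held 2 motif matches, against a median of 3 in 1511 loci of similar width.
Clu exon 3, chr14:65973325-65973473, plus strand: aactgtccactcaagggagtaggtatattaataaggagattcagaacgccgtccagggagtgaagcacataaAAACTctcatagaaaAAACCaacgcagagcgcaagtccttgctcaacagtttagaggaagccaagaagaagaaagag

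The scores at exon 3 of Clu were 795, 632, 615 and 920 in control kidneys 1 to 4, 994, 597, 2121 and 1960 in IG, and 1105, 874, 1631 and 1241 in TG. The means were 741 ± 144, 1418 ± 740 and 1213 ± 317 (SD, n = 4 each). IG overlapped the controls through IG kidney 2, and TG through TG kidney 2. These were high scores in each list, from the 88.7th to the 97.3rd percentile.

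On the centred log2 scale Clu exon 3 was higher in TG than in controls by 1.10 ± 0.33 (limma, SE, 95% interval 0.37 to 1.83, adjusted p = 0.0490). This call was lost when any kidney other than TG kidney 2 was left out (adjusted p of limma up to 0.112), with differences of 0.89 to 1.18 in those fits. It was also lost without centring, at a difference of 0.69 (limma, adjusted p = 0.104). On the percentile scale it was lost too, at 2.46 percentile points (limma, adjusted p = 0.361). Among loci whose peaks all reached the median score, the adjusted p was 0.0190 (limma). The difference between IG and control was 0.93 ± 0.45 (limma, 95% interval -0.07 to 1.93, adjusted p = 0.194), and that between TG and IG was 0.17 ± 0.48 (limma, 95% interval -0.91 to 1.24, adjusted p = 0.916). Over all loci listed in each of the 8 kidneys compared, the score differed at 14.6% of 3036 loci in IvC, 15.4% of 2819 in TvC and 0% of 2776 in TvI (limma). In TvI, 310 loci had an unadjusted p under 0.05. The direction of these calls over all loci depended on scaling: in TvC, 233 were higher and 200 lower after centring, 133 and 365 without it, and 85 and 217 as percentiles. In IvC the numbers were 230 and 213, 189 and 249, and 93 and 153. Without centring the median of all loci stood at -0.38 in TvC, -0.14 in IvC and -0.20 in TvI.

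Exon 1 of Clu (chr14:65968483-65968688, 5′ UTR) was listed in 3 controls, with scores of 41.8, 47.2 and 17.7, in IG kidney 3, with 278, and in TG kidney 4, with 18.7. The one IG peak had the highest score of the 5.

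**Figure D3:**
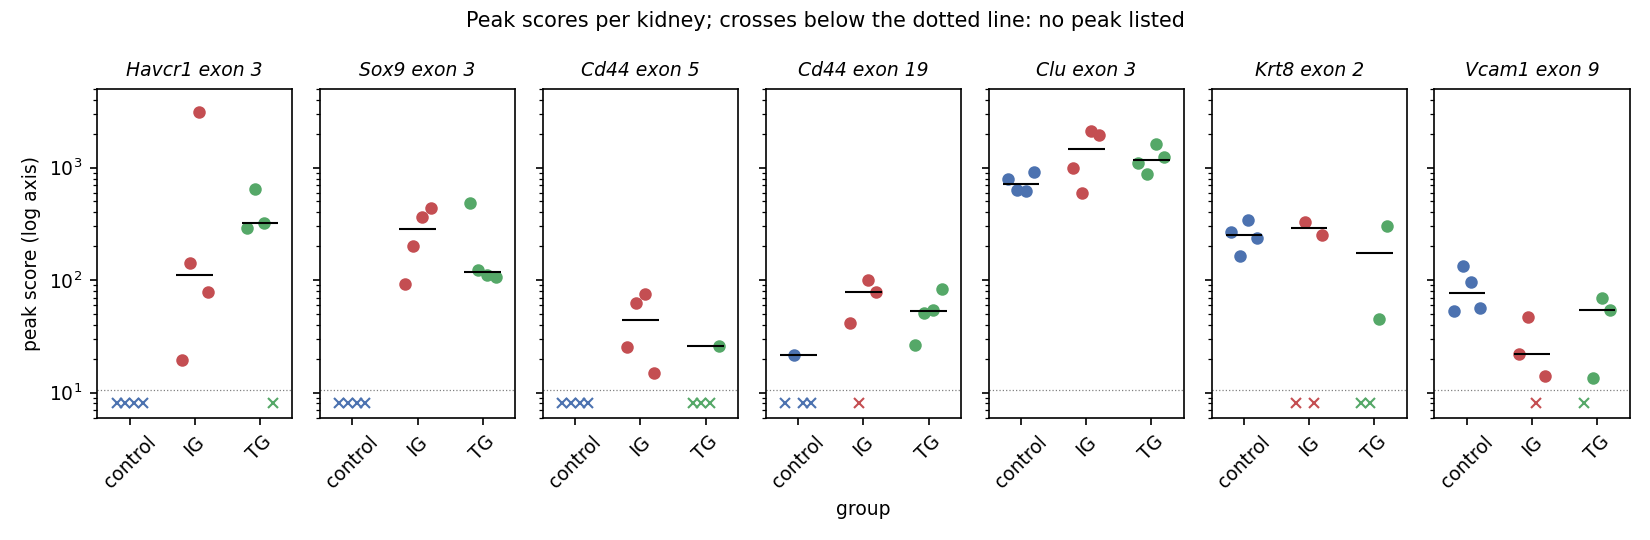
Peak scores (log axis) at the main loci of 6 markers in control, IG and TG kidneys. Points are kidneys, horizontal lines are medians of the listed kidneys, and crosses below the dotted line are kidneys without a listed peak. Havcr1 exon 3 in IG spreads from 19.6 to 3144, and Clu exon 3 has no cross in any group.

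Krt8, Krt18 and Krt20 are keratins of simple epithelia, of which Krt8 pairs with Krt18 in the filaments of stressed tubules. In Krt8, both loci were listed in every control. The gene (ENSMUSG00000049382.10, chr15:101996698-102004482, minus strand, 9 exons) was listed in 4 of 4 control, 2 of 4 IG and 2 of 4 TG kidneys (IvC and TvC, Fisher's exact test, p = 0.429 each). Its exons 2 and 3 are shown because they were the only Krt8 exons with a peak. Keratin genes have processed copies elsewhere in the genome, so the assignment of their reads is uncertain.
Krt8 exon 2, chr15:102001417-102001625, minus strand: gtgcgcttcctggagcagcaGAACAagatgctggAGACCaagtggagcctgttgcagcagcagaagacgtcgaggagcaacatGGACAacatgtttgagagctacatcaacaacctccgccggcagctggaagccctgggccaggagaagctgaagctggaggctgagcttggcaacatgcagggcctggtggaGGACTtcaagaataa
Krt8 exon 3, chr15:102000580-102000640, minus strand: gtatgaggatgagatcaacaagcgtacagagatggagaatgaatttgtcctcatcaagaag

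Exon 2 held 4 motif matches, 1 of them GGACT, and the 61 bases of exon 3 held none, where 71.7% of loci of similar width hold at least 1.

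The scores at exon 2 of Krt8 were 270, 164, 343 and 239 in control kidneys 1 to 4, 329 and 250.0 in IG kidneys 2 and 4, and 44.8 and 305 in TG kidneys 3 and 4. At exon 3 they were 94.5, 136, 104 and 231 in the controls, 326 in IG kidney 4 and 175 in TG kidney 4. Where Krt8 was listed in IG, its score was within or above the control range. The exon 3 difference of 4 against 1 kidney gave p = 0.143 in IvC and in TvC (Fisher's exact test). Both exons were listed in the 4 controls, in IG kidney 4 and in TG kidney 4 only. Among TG kidneys, number 4 also differed in lacking Havcr1 and in holding Cd44 exon 5.

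The 4 markers without a peak were Lcn2 (ENSMUSG00000026822.14, chr2:32384633-32388252, minus strand), Spp1 (ENSMUSG00000029304.14, chr5:104435118-104441050, plus strand), Krt18 (ENSMUSG00000023043.7, chr15:102028180-102032027, plus strand) and Krt20 (ENSMUSG00000035775.2, chr11:99428403-99438150, minus strand). Lcn2 encodes lipocalin 2, an iron carrier measured in urine as a sign of tubular damage, and Spp1 encodes osteopontin, a secreted matrix protein. No peak was listed in them in any control, IG or TG kidney. For Krt20, however, the study reports sites among those with the largest rise in methylation in IvC, from its separate test of differential sites. A missing peak in these lists therefore does not show a lack of m6A. Of genes with a similar exonic length (within 10%), 25.5% held a peak for Lcn2, 20.7% for Spp1, 17.3% for Krt18 and 20.4% for Krt20. The same share was 24.1% for Havcr1, 20.3% for Krt8, 32.9% for Clu, 39.9% for Sox9, 52.6% for Cd44 and 58.2% for Vcam1. No peak lay on the opposite strand of an exon of any of the 10 genes.

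The extent of the marker peaks followed the exons. Of the 82 peaks, 50 (61.0%) spanned exactly an annotated exon, against 64.5% of all peaks, and 80 began at the 5′ edge of an exon. Of the 15 loci, 8 lay wholly in coding sequence and 3 in a last exon with the stop codon.

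A list of 40 other genes of tubular injury and repair were set beside the markers, and 16 held a peak. In IvC, 3 of these 16 were listed in more kidneys, 5 in as many and 8 in fewer, with a median difference of -0.5 kidneys. In TvI, 0 of 13 were listed in more kidneys, 6 in as many and 7 in fewer (median -1), and in TvC the numbers were 2, 4 and 9 of 15 (median -1). Over all genes, 1753 were listed in more, 2847 in as many and 2926 in fewer kidneys in IvC. The numbers were 1177, 2902 and 2587 in TvI, and 1222, 2536 and 3484 in TvC.

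**Figure D4:**
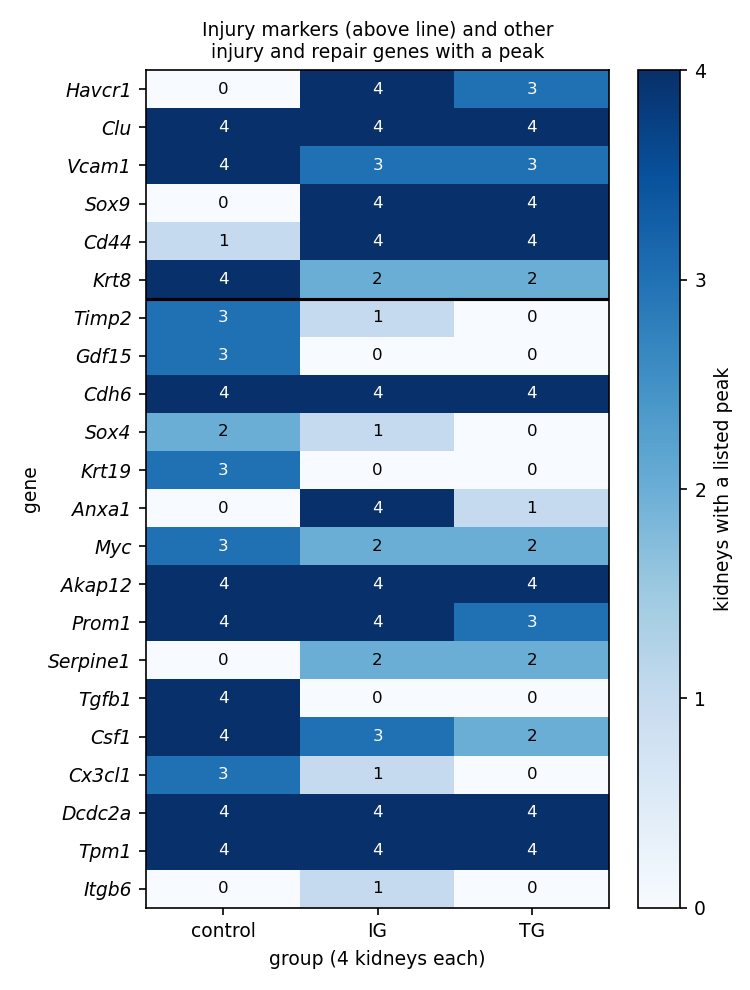
Number of kidneys (of 4) with a listed peak in each group for the 6 listed injury markers, above the line, and 16 other injury and repair genes, below it. Darker cells mean more kidneys. Havcr1, Sox9 and Anxa1 go from 0 in control to 4 in IG, and Tgfb1 goes from 4 to 0.

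Among the 40 genes, 1 of the 16 tested in IvC was gained and 1 lost, against 1.90% and 3.16% of all genes, and 1 of the 15 tested in TvC was called, against 5.88%. Anxa1, the gene of the phospholipid-binding protein annexin A1, was listed in 0 of 4 control and 4 of 4 IG kidneys, with scores of 30.6 to 137 in IG, and in 1 TG kidney, with 48.1. Presence was called in IvC (p = 0.0286, adjusted p = 0.564) and gave p = 0.143 in TvI (Fisher's exact test for both). Tgfb1, the gene of a growth factor that drives fibrosis, was listed in 4 of 4 controls, with scores of 42.1 to 85.6, and in no IG or TG kidney. It was called in IvC (adjusted p = 0.564) and in TvC (adjusted p = 0.486, Fisher's exact test for both).

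Markers of the cell types of the kidney were listed alongside. Per kidney, 0 to 1 of 12 proximal tubule markers was listed in controls, 1 in IG and 1 to 2 in TG, and 3 of the 12 held a peak in any kidney. Those with a peak were Slc7a13, in 1 control, 4 IG and 4 TG kidneys, and Cubn and Slc22a6, each in 1 TG kidney. The defining genes Slc34a1 and Lrp2 held none. All of these were named after their values were seen. The numbers for controls, IG and TG were 0 to 1, 1 to 2 and 0 to 1 of 6 for the loop of Henle and distal tubule, and 1, 1 and 1 to 2 of 5 for the collecting duct. They were 1 to 3, 1 to 2 and 1 to 3 of 5 for podocytes, 3 to 5, 3 to 5 and 2 to 5 of 7 for endothelium, and 2 to 3, 2 to 3 and 2 to 4 of 7 for stroma. Leukocyte markers were listed at 1 to 2 of 12 in controls and IG and at 2 to 5 in TG. Presence of a peak is a weak sign of cell type, and tubule identity could not be checked this way.

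Over the cell type lists, 1 of 4 leukocyte genes tested was called in IvC (5.06% of all genes), the same gene of 7 tested in TvC (5.88%), and 1 of 2 loop of Henle and distal tubule genes in TvI (0.765%). Itgam, an integrin chain of neutrophils and macrophages, was listed in 0 of 4 control, 4 of 4 IG and 4 of 4 TG kidneys, with scores of 118.9 to 206 in IG and 15.6 to 416 in TG (IvC, adjusted p = 0.564, and TvC, adjusted p = 0.486, Fisher's exact test). The other 3 leukocyte genes tested in IvC were listed in fewer IG than control kidneys, with a median difference of -1 over the 4. Itgam had the same presence pattern as Sox9, and its part in the marker results was not tested. Slc12a1, the sodium-potassium-chloride transporter of the thick ascending limb, was listed in 1 control, 4 IG and 0 TG kidneys, with IG scores of 190 to 786, and was called in TvI (Fisher's exact test, p = 0.0286, adjusted p = 1). The other gene of that list tested in TvI was listed in more TG than IG kidneys, 3 against 2. For Slc12a1 the study reports the reverse direction, with methylation lower in IvC and higher in TvI, from its separate test of differential sites.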

How the data were processed

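MeRIP-seq peak lists of 12 kidneys were used, grouped as the labels give them into control, IG and TG with 4 kidneys each, from separate mice. The authors enriched fragmented RNA with an m6A antibody, made strand-specific libraries, trimmed reads with cutadapt 1.9.3, aligned them with HISAT2 2.0.4 to mm10 (GRCm38), ran MACS on every kidney and retained peaks that touched mRNA exons. The score deposited by the authors is 10 times the negative log10 of the p-value. The version, threshold and control library of MACS are not given in the sources used here. The 12 input libraries were not analysed here.

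From these lists, peaks were joined into loci on the same strand, with the highest score kept per kidney and locus. Genes and exons came from GENCODE M21, exon numbers from the transcript with the longest coding sequence, and sequences from the RefSeq GRCm38.p6 assembly. Presence was compared with Fisher's exact test and scores at loci listed in all 8 kidneys compared with limma 3.58.1, on log2 scores centred per list on the median of the 2417 loci found in all 12 kidneys, both adjusted by Benjamini-Hochberg over all loci or genes. No missing score was imputed. The steps were run on simulated data with planted changes. Planted presence changes were in every kidney of one group and in none of the other, the definition of a call, so their recovery was fixed in advance. Planted score changes were larger than the differences at the marker loci. Precision rests on 4 kidneys per group, since depth is unknown.

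The members and the gene lists were chosen with earlier results of these data known. Named were the 10 markers and, from a list of 40 injury and repair genes and 7 lists of cell type markers, the genes called in a comparison, and the 5 genes most like Havcr1. Slc34a1 and Lrp2 were named outside this rule, as defining genes of the proximal tubule, and so were the proximal tubule markers with a peak. Alternatives were equally long lists (5901 peaks), scores at or above the median, other joining (regardless of strand, or within 100 bp), at least 50% of a peak in exons, both strands, a difference of 3 of 4 kidneys, other scalings, a replicate block, and the omission of single kidneys. Python 3.11.15, numpy 2.4.6, scipy 1.17.1, matplotlib 3.10.9 and R 4.3.3 were used.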

Additional observations from a re-analysis of the deposited data

Results flagged for a closer look

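Within-group values were compared in 22 groups of 4 kidneys, and 3 held a kidney whose gap to the nearest other, as a share of the group's range, passed Dixon's limit for 4 values, with scores on their own scale. For independent normal values this limit flags about 1 in 20 groups by chance, a rate that need not hold for skewed scores or for counts. At Havcr1 exon 3, IG kidney 3 had a score of 3144, with a gap of 0.961 of the range of IG. The order of scores near 3100 is uncertain, while the next IG score was 142. On the log2 scale the gap was 0.610, below the limit. At Sox9 exon 3, TG kidney 1 had a score of 485, with a gap of 0.956 of the range of TG and 0.904 on the log2 scale. Control kidney 2 listed 4 marker genes where the other controls listed 3, a gap of 1 that follows from the 3 tied values, so that the rate of 1 in 20 does not apply to it, and the additional gene was Cd44 with a single peak in its last exon.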

How the results depend on the processing

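With equally long lists, the marker loci called in IvC were 1 in place of 3, and in TvC 2 in place of 1. The marker genes called in TvC were also 2 in place of 1, and in IvC the number of genes stayed at 2 while Havcr1 was lost (75 percentage points, exact p = 0.143) and Cd44 was added. Over all loci 3.89% were called in IvC and 3.86% in TvC at this setting, and over all genes 4.49% in IvC and 4.84% in TvC. With scores at or above the median, 1 locus and 1 gene were called in IvC, against 4.30% of all loci and 4.42% of all genes. When a lead of 3 kidneys was enough, the calls were 5 loci in IvC, 1 in TvI (Cd44 exon 5), 5 in TvC and 3 genes in TvC, while the shares over all features rose to 12.8%, 4.49% and 14.8% of loci and 16.2% of genes. Leaving out each kidney in turn gave 3 to 4 loci in IvC, 0 to 1 in TvI, 1 to 4 in TvC, 2 to 3 genes in IvC, 1 to 2 genes in TvC and 0 to 1 loci by score in TvC. Of these, the presence counts could only stay or grow, because 3 of 3 against 0 of 4 kidneys has the same exact p as 4 of 4 against 0 of 4 (p = 0.0286), so they do not bear on stability. In these settings 5.01 to 5.50% of all loci were called in IvC, 1.04 to 1.34% in TvI and 5.70 to 6.51% in TvC. Of all genes, 5.98 to 6.66% were called in IvC and 6.86 to 8.06% in TvC. By score, 250 to 370 of 2819 loci were called in TvC. Without IG kidney 1, Sox9 exon 2 joined the IvC calls (its difference was 25 percentage points with scores at or above the median), and without IG kidney 4 Krt8 exon 3, as a loss. Without TG kidney 4, the sole TG kidney with Cd44 exon 5, that 1 locus was called in TvI, and in TvC 4 loci (Havcr1 exons 2 and 3 and Krt8 exon 3 joined) and 2 genes (Havcr1 joined). Without control kidney 2, Cd44 joined in both comparisons with the controls, which made 3 genes in IvC, 2 genes in TvC and 2 loci in TvC. The 1 marker locus called by score in TvC (Clu exon 3) became 0 as percentiles, 0 without centring and 0 with the replicate block.

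Deviations of same-numbered kidneys correlated at -0.0154 to 0.0745 in IvC, -0.0129 to 0.110 in TvI and -0.0288 to 0.0387 in TvC. The means for different numbers were -0.00606, -0.0206 and -0.00125. In these comparisons 1, 3 and 1 of 4 kidneys correlated best with their own number. With 4 kidneys per group these values cannot decide whether replicate numbers pair the kidneys. With the replicate block, 0 marker loci and 0 genes were called by presence in IvC, TvI or TvC, where the smallest exact paired p is 0.125. Direction turned in 6 cases, none of them called: Clu exon 1 in IvC (25 percentage points with scores at or above the median), Cd44 exon 19 in TvI (-25 under the same filter), the log2 score of Clu exon 3 in TvI (-0.0839 without centring, and -0.200 to 0.422 with single kidneys left out, below 0 without IG kidney 2 and, at -0.0451, without TG kidney 3) and that of Sox9 exon 3 in TvI (-0.764 to 0.0840 with single kidneys left out, above 0 without IG kidney 4). Peak joining, the overlap with exons and strand changed no call. For changes beyond those that follow from fewer kidneys or peaks, the cause was not tested. Depth was not known for any list, so it could not be said how many missing peaks lie just below the threshold.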
